A study of Cochliomyia hominivorax with 18 samples.

Results

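Adult and larval midguts of the New World screwworm, Cochliomyia hominivorax, were compared after tetracycline had been withdrawn from rearing. The members are the 6 libraries whose labels give a post-Tc midgut, 3 from adults and 3 from larvae, of 18 libraries in the series. Adult post-Tc midguts were tested against larval post-Tc midguts. Adult and larval midguts from rearing during tetracycline (on-Tc) and from controls taken before it, 3 libraries each, gave the stage difference at the other times. All animals were production flies, and poly(A)-selected RNA from dissected midguts was sequenced. The labels give no strain, sex, age, dose or number of animals per library, and they do not say whether the 3 libraries of a group came from separate cages, so the spread behind each p-value is that of the sequenced libraries and may be technical. Adult and larval midguts differ in when and how they were collected as well as in stage, and these cannot be told apart.

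The midgut is the part of the insect gut where food is digested and absorbed, and its epithelium is also a barrier to ingested microbes. Screwworm larvae eat living flesh in the wounds of their hosts, while the adults are free-flying and take liquid food. In flies, as known best from Drosophila, the larval midgut epithelium is shed at metamorphosis and the adult epithelium is built anew from precursor cells, so the adult and the larval midgut are made of different cells. Tetracycline blocks bacterial protein synthesis and serves as the off switch of conditional transgenes in engineered insects. The post-Tc samples show the stage difference in animals for which this agent had been withdrawn.

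The deposited table holds read counts for predicted transcripts, each with an ID made of a gene number and a transcript number. It pairs no gene names with those IDs, so digestive, immune or tissue marker genes could not be looked up, and the midgut label could not be checked against marker genes. Transcripts are therefore described by ID, level and pattern.

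The 6 post-Tc libraries held 29760361 to 39380224 counts in adults and 30994870 to 58865469 in larvae. Stage was the main axis among them. The first principal component of log2 CPM (CPM, a library's counts as a share of its total, scaled by TMM factors) held 71.9% of the variance and parted adults from larvae. Correlations of log2 CPM over 12599 transcripts ran from 0.933 to 0.958 between adult libraries and from 0.937 to 0.967 between larval libraries, against 0.765 to 0.818 across stages. Within each stage 1 library stood apart. Adult 1 lay nearer to the larvae on the first component, at -93.1 against -126.0 and -131.2 for adults 2 and 3, and its correlation with each larva was 0.813 to 0.818 while those of adults 2 and 3 were 0.765 to 0.781. Larva 3 stood apart on the second component (10.5% of the variance), at 80.3 against -30.9 and -58.0 for larvae 1 and 2. The median SD of log2 CPM per transcript was 0.339 in adults and 0.524 in larvae, and without larva 3 the larval value was 0.310. That value rests on 2 libraries, and the adult values from 2 libraries were 0.236, 0.299 and 0.271 without adults 1, 2 and 3.

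**Figure D1:**
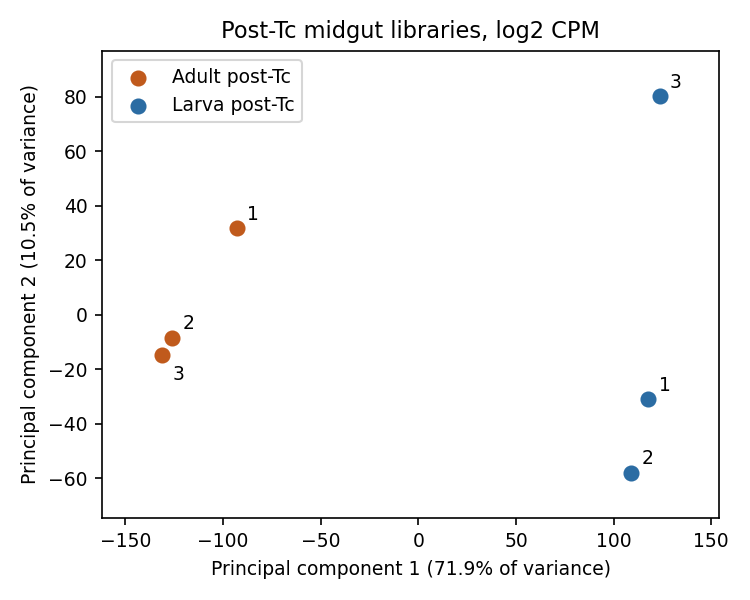
Each point is a post-Tc midgut library, labelled with its replicate number, on the first (71.9% of variance) and second (10.5%) principal components of log2 CPM; orange marks adults and blue larvae. Stage separates the libraries along the first component, with adult 1 nearest to the larvae, and larva 3 lies apart from larvae 1 and 2 on the second.

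In the main fit of the post-Tc midguts, calls with more in adults were about as many as calls with less, but this split moved with the fit. In edgeR's quasi-likelihood test, 3866 of 12599 transcripts (30.7%) passed a false discovery rate (FDR) of 0.05. Adults had more of 1989 of these (15.8% of those tested) and less of 1877 (14.9%). The first made up 51.4% of calls. In other settings their share ran from 47.8%, without larva 3, to 60.5%, with only the 6 post-Tc libraries and a replicate block. Levels are shares of a library's scaled total, so a shift shared by most transcripts would not show. The split is therefore relative, and it was not tested. Among called transcripts the median fitted rise was 5.63-fold with an interquartile range of 2.73 to 26.8-fold, and the median fall was 3.35-fold, from 2.11 to 12.4-fold. The risen transcripts had a lower median level in the higher stage (14.6 CPM) than the fallen ones (32.7 CPM), and the sizes of rises and falls were not tested against each other. Setting the 117 risen transcripts with 0 larval counts and the 75 fallen ones with 0 adult counts at a floor of 3 counts per library gave medians of 5.29-fold and 3.26-fold. At least 2-fold changes made up 1738 of the rises and 1484 of the falls. With the same floor, the estimate was 10-fold or more for 719 of those higher in adults and 485 of those lower, and 100-fold or more for 224 and 112. In a whole-tissue sample, fewer cells of a type and less RNA per cell cannot be told apart.

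The 3 adult and 3 larval libraries did not overlap in CPM for 5629 transcripts, 44.7% of those tested. This held for 1906 of the 1989 called higher and 1762 of the 1877 called lower. A typical 95% interval of a fitted fold change extended 1.98-fold to either side, so smaller stage differences were often not detectable. When the test was made against a 2-fold change instead of against no change, 985 transcripts were still higher in adults and 712 lower. Leaving out adult 1 gave 1805 higher and 1634 lower, and leaving out larva 3 gave 1495 higher and 1631 lower. The fewest calls came without adult 3, with 1429 higher and 1159 lower. With only the 6 post-Tc libraries in the fit, 2927 of 11053 transcripts were called, 1683 (15.2%) higher in adults and 1244 (11.3%) lower, and 2729 of these were also among the 3866.

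**Figure D2:**
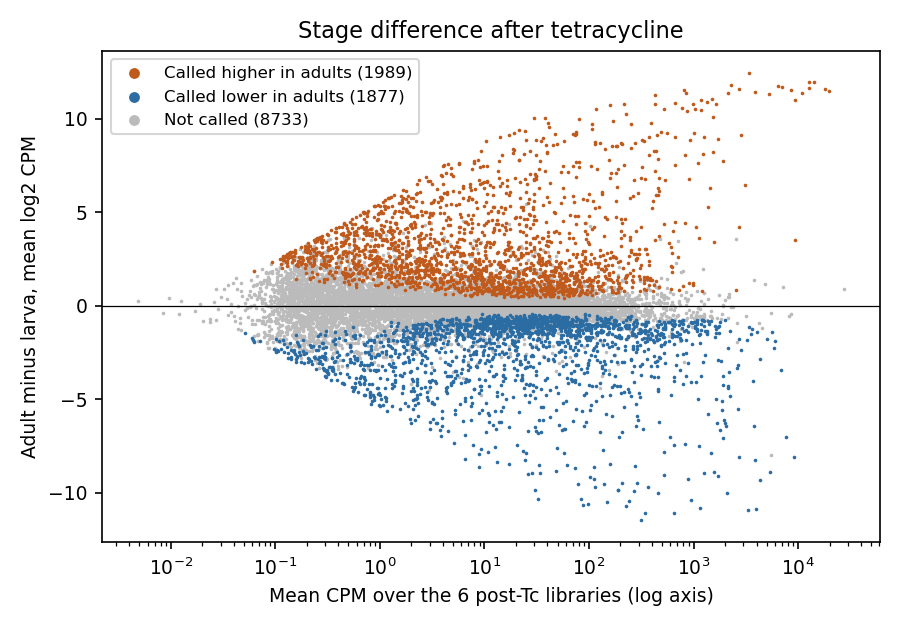
Each point is 1 of 12599 transcripts, with its mean CPM over the 6 post-Tc libraries on the horizontal log axis and the adult minus larval difference in mean log2 CPM on the vertical axis. Orange marks the 1989 called higher in adults, blue the 1877 called lower and grey those not called; the called transcripts lie on both sides of 0 at every level of abundance, and the widest differences reach transcripts above 1000 CPM.

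Calls were most frequent among transcripts that took many reads. At a mean of 1000 CPM or more over the 6 libraries, 135 of 190 transcripts were called (71.1%), 41 higher in adults and 94 lower. From 100 to 1000 CPM the share was 50.0% of 1201 transcripts, 240 higher and 361 lower. It was 32.3% of 4493 from 10 to 100 CPM, 29.7% of 3684 from 1 to 10 CPM and 19.4% of 3031 below 1 CPM. The balance turned with level. Below 1 CPM, 377 were higher in adults and 210 lower, while from 10 CPM upwards those lower in adults were the more numerous. More reads also give the test more power, so these shares do not by themselves rank the size of change. The classes were set on the same 6 libraries, so a transcript high in 1 stage alone can enter a high class through that stage. The shares and the medians that follow describe the classes and test nothing. The median fitted difference over all transcripts of a class, called or not, was 3.48-fold at 1000 CPM or more, 1.97-fold from 100 to 1000 CPM and 1.47-fold from 10 to 100 CPM, but 2.41-fold below 1 CPM, where counting error is large.

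Adult midguts put more of their reads into a few transcripts. The 10 most abundant transcripts of each library took 23.1%, 26.2% and 27.0% of counts in adults 1 to 3, against 14.4%, 13.5% and 11.1% in larvae 1 to 3. The stages did not overlap, at 25.4% ± 2.03 in adults and 13.01% ± 1.69 in larvae (SD, n = 3 each; exact permutation test, two-sided, p = 0.1, the smallest that 3 against 3 allow). For the 100 most abundant the shares were 51.7% ± 2.98 in adults and 44.0% ± 2.22 in larvae (SD, n = 3 each). The leading transcripts were largely different ones. The stages' lists of the 10 most abundant had 1 transcript in common and their lists of 100 had 33. The 10 leading adult transcripts took 24.8% ± 2.25 of adult counts and 2.07% ± 1.20 of larval counts, and 9 of them were called higher in adults. The 10 leading larval transcripts took 5.16% ± 1.30 of adult counts and 11.9% ± 1.96 of larval counts, and 6 of them were called lower in adults (SD, n = 3 each). Among the 100 leading larval transcripts 76 were called lower in adults, and among the 100 leading adult ones 55 were called higher and 12 lower, where 14.9% and 15.8% of all transcripts were called lower and higher. Abundant transcripts were called more often, with 94 of the 190 at a mean of 1000 CPM or more lower and 41 higher. These lists were chosen on the same libraries, so the shares describe them and test nothing.

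No difference in the number of transcripts read was shown. After all 6 libraries had been thinned to 29760361 counts, adults 1 to 3 detected 13891, 13949 and 14398 transcripts and larvae 1 to 3 detected 14098, 14212 and 13026. The stages overlapped, with larva 3 the lowest of all (exact permutation test, two-sided, p = 0.7). The adult mean minus the larval mean was 300.7 transcripts, and -75.7 without larva 3.

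A total of 4 transcripts are named, 1 for the largest fitted log2 difference and 1 for the highest level in each direction among called transcripts whose libraries did not overlap and whose libraries in the higher stage lay within a factor of 4. The fitted log2 difference of a transcript with 0 counts in a stage depends on the prior count of the fit, so the first of these ranks transcripts by the fit and not by a measured fold. The condition was met by 1652 of the transcripts higher in adults and 1436 of those lower.

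The transcript with the highest adult level was g9921.t1. It stood at 29574, 45405 and 42480.3 CPM in adults 1 to 3, against 18.6, 12.7 and 10.4 CPM in larvae 1 to 3. All adult libraries lay more than 3 orders of magnitude above all larval ones, and by reads it held rank 1 in adults and rank 4929 in larvae, without correction for length. The fitted difference was 11.46 ± 0.69 (log2, SE), or 2815-fold (edgeR FDR 3.14e-08). This transcript alone took 3.67% of adult post-Tc counts on average. Adults also lay far above larvae at the other times, with 18272 to 69491 CPM in control adults against 11.01 to 12.5 CPM in control larvae, and 12857 to 23058 CPM in on-Tc adults against 10.3 to 12.2 CPM in on-Tc larvae. All on-Tc adults lay below all post-Tc adults, and the fitted stage difference was 3160-fold in controls and 1471-fold on-Tc, which edgeR did not call different from the post-Tc one.

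The largest fitted log2 difference upwards was that of g21130.t1. It had 20.6, 28.7 and 12.8 CPM in adults 1 to 3 (633, 987 and 404 counts) and 0 counts in each of the 3 larval libraries. The adult mean was 260.2-fold a floor of 3 counts per larval library (edgeR FDR 6.14e-06 for the fitted difference). This ratio rests on the group mean, so single adults lay above and below it. Traces of it were read in larvae at other times, with 4, 2 and 0 counts in the control larvae and 0, 2 and 0 in the on-Tc larvae, beside 5.57 to 13.8 CPM in control adults and 6.86 to 14.2 CPM in on-Tc adults.

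Among transcripts lower in adults, g10912.t1 had the highest larval level. Adults 1 to 3 held 107.8, 146.1 and 92.6 CPM, against 12080.1, 21133 and 12139 CPM in larvae 1 to 3. The groups were far apart, and larva 2 was the highest library. Its fitted log2 difference was -7.03 (SE 0.68), 131-fold lower in adults (edgeR FDR 4.12e-06). By reads it held rank 1103 in adults and rank 3 in larvae, and it took 0.0109% of adult and 1.44% of larval counts on average. On-Tc adult 1 had more of it than any other adult library, at 465 CPM, against 80.9 and 142.9 CPM in on-Tc adults 3 and 2.

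The largest fitted log2 difference downwards was that of g3979.t1. No counts were read in the 3 post-Tc adults, against 1668, 7021 and 929 counts in larvae 1 to 3 (45.1, 117.6 and 33.1 CPM). The larval mean was 701-fold a floor of 3 counts per adult library (edgeR FDR 5.27e-06 for the fitted difference). Larva 2 was again the highest and raised that mean. The other adults together held 6 counts in controls and 2 on-Tc, against 10402 and 5497 counts in the larvae of those times. All 4 named transcripts stayed past FDR 0.05 in the same direction in each of the 20 alternative fits.

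**Figure D3:**
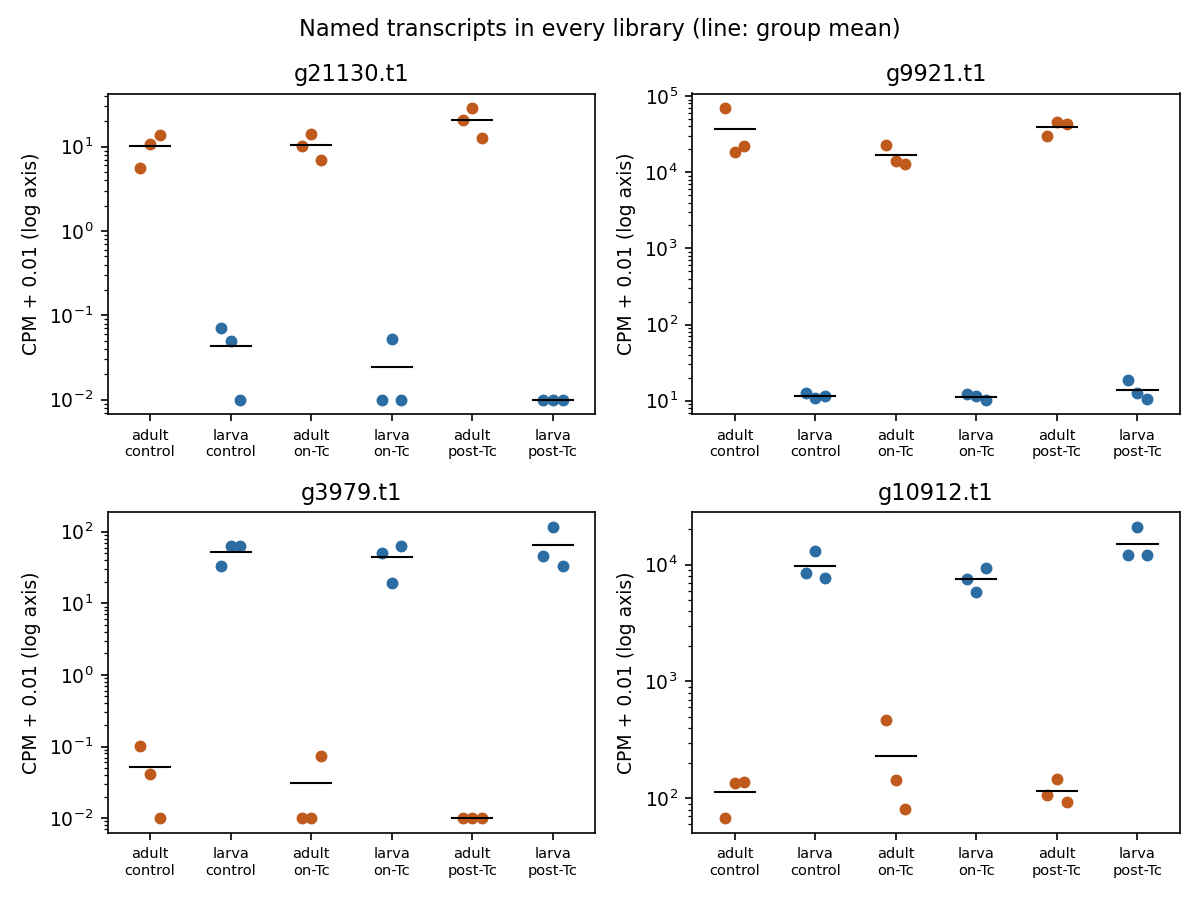
Each panel shows a named transcript, with CPM plus 0.01 on a log axis for every library of the 6 groups; orange marks adults, blue larvae, and the line is the group mean of 3 libraries. In each panel the adult and larval points stay far apart before, during and after tetracycline, and the post-Tc points at the bottom of the left panels are libraries with 0 counts.

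A clear level in every library of a stage beside 0 counts in the other was seen for few transcripts. In 24 transcripts every post-Tc adult had 1 CPM or more and no larva a count, and in 10 the reverse held, with median levels of 3.04 and 10.4 CPM and highest levels of 60.0 and 65.3 CPM. All of them were called, which largely follows from their choice on the same libraries. Of the 24, 6 also had 0 counts in the other 6 larval libraries, and of the 10, 2 also had 0 counts in the other 6 adult libraries. In the other 6 libraries of their own stage, 7 of the 24 and 7 of the 10 also reached 1 CPM. Only 1 of the 24 and 1 of the 10 kept both parts of the pattern. Allowing up to 3 counts per library raised the 24 and the 10 to 60 and 36. A count of 0 limits a transcript to 3 counts per library, for counting error only, and does not show that it is absent. This limit takes each count as a separate event, which was not tested, and the folds against the floor rest on the same assumption.

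Transcripts that differed between stages before and during tetracycline differed in the same direction after it, with few exceptions. To see this on libraries that had not chosen them, an adult list and a larval list were chosen on the 12 control and on-Tc libraries alone, as transcripts called in the same direction by edgeR in both conditions. The fit on all 18 libraries called 27.4% of transcripts between stages in controls and 24.7% on-Tc, and these shares were not tested against the 30.7% post-Tc. The adult list held 951 transcripts of the tested table and the larval list 1002. In the post-Tc libraries, 950 of the 951 had a higher mean log2 CPM in adults, as had 49.4% of all transcripts, and 997 of the 1002 had a lower one, as had 50.6% of all. Adult and larval libraries did not overlap for 895 of the adult list (94.1%) and 860 of the larval list (85.8%), where 23.2% and 21.5% of all transcripts did so in those directions. A fit on the 6 post-Tc libraries called 777 of 902 tested members of the adult list higher (86.1%) and 697 of 952 members of the larval list lower (73.2%), against backgrounds of 15.2% and 11.3%, and none the other way. The median stage difference of the lists in post-Tc libraries was 3.04 and -2.34 (log2 CPM).

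The adult list took 38.3%, 47.3% and 48.6% of counts in post-Tc adults 1 to 3, against 2.71%, 2.91% and 2.03% in post-Tc larvae 1 to 3. Adult 1 was the lowest adult, and no adult came near a larva. The same list took 32.7% to 43.1% in control adults and 27.7% to 33.1% in on-Tc adults, so the post-Tc adults lay above all 3 on-Tc adults and overlapped the controls. The larval list took 4.89%, 3.75% and 3.12% in post-Tc adults 1 to 3, with adult 1 the highest, against 34.7%, 35.6% and 33.9% in post-Tc larvae 1 to 3. In larvae of the other times the larval list ranged from 27.7% to 36.5%. Adult 1 thus had the smallest share of adult-list counts and the largest share of larval-list counts among post-Tc adults, and its part in the calls is given by the counts without it above.

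**Figure D4:**
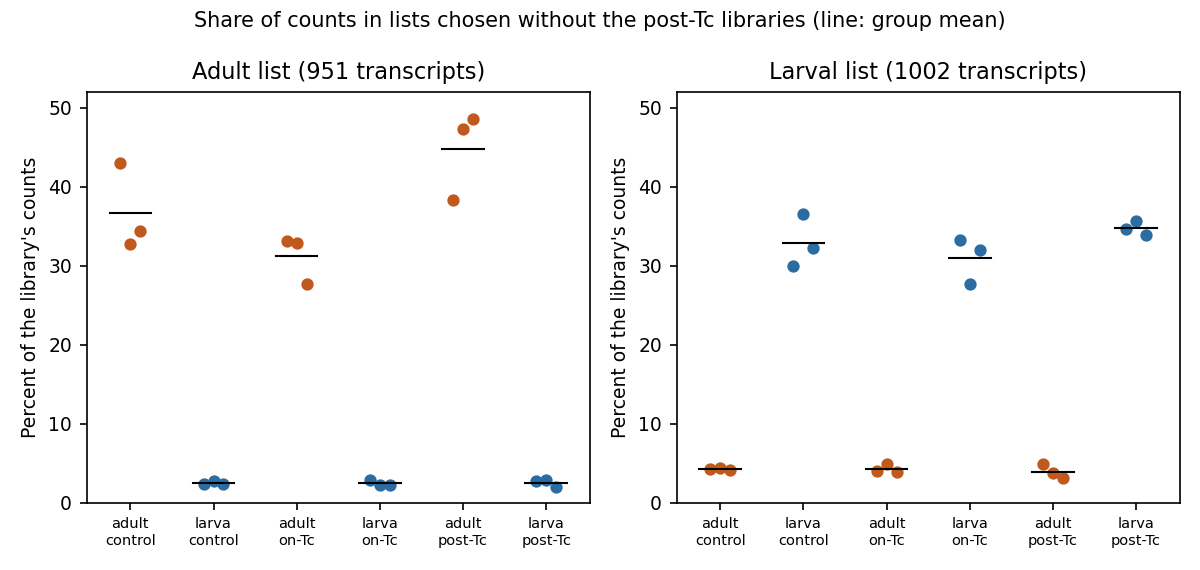
Points are libraries and lines group means (n = 3): the percentage of each library's counts in the adult list of 951 transcripts and in the larval list of 1002, both chosen without the post-Tc libraries. Orange marks adults and blue larvae; post-Tc adults hold 38.3% to 48.6% of their counts in the adult list and post-Tc larvae 2.03% to 2.91%.

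By edgeR, no transcript passed the test for a stage difference after tetracycline that differed from the one before it, and DESeq2 called a few. The difference itself was tested in the 18 libraries as (adult minus larva post-Tc) minus (adult minus larva in controls). A change shared by adults and larvae cancels in this difference. The edgeR test called 0 of 12599 transcripts (0%), the lowest FDR being 0.842, while 655 (5.20%) had an unadjusted p below 0.05. With a library left out that number ran from 446, without control larva 1, to 1035, without control larva 2, and the lowest FDR was 0.191 without post-Tc larva 2. Limma-voom also called 0, with 587 under 0.05, and DESeq2 called 6, 4 more positive and 2 more negative. Library names hold a digit, 1 or 2, whose meaning is not given. It was 1 in all control larvae, while every other group held both. With this digit as a covariate edgeR still called 0, with 472 under 0.05 and a lowest FDR of 0.234. A typical 95% interval of this double difference extended 2.57-fold to either side, so a single transcript could have changed by a few fold undetected. Across transcripts the post-Tc and control stage differences, which share no library, had a Pearson correlation of 0.909 and a Spearman correlation of 0.820 (n = 12599 transcripts of the same table and scaling, which are not independent replicates). Their median absolute gap was 0.420 log2 units.

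**Figure D5:**
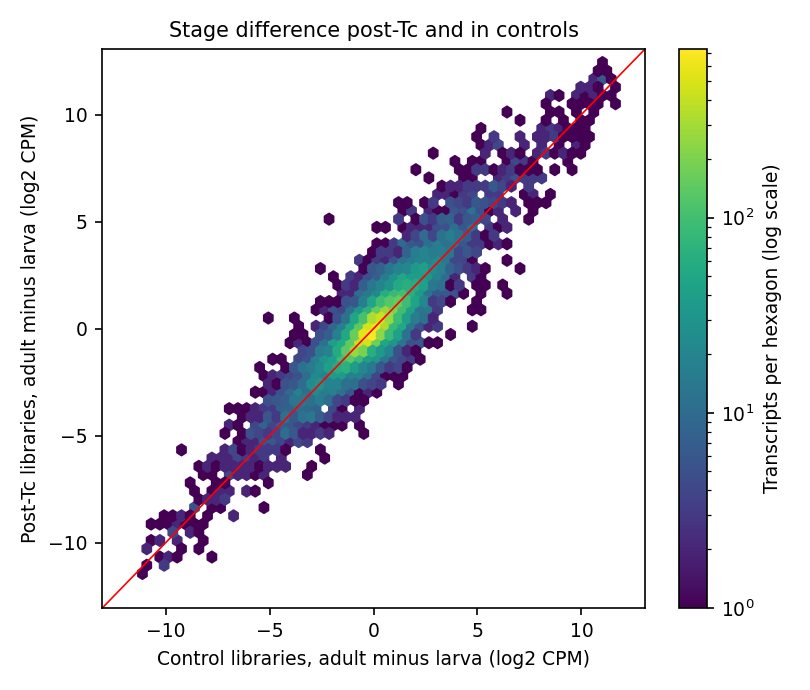
Each hexagon counts transcripts by their adult minus larval difference in mean log2 CPM, in control libraries on the horizontal axis and in post-Tc libraries on the vertical axis; the red line marks equal differences. The 12599 transcripts follow the line over the whole range (Pearson correlation 0.909).

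In the main fit the on-Tc stage difference lay somewhat further from the post-Tc one than the control difference did, but this ordering was not tested. For (adult minus larva post-Tc) minus (adult minus larva on-Tc) edgeR again called 0 transcripts (0%), the lowest FDR being 0.0590, but 1335 (10.6%) had an unadjusted p below 0.05. With a library left out, the number with p below 0.05 ran from 962, without post-Tc adult 3, to 1648, without on-Tc larva 2. This range overlapped the one against control. Limma-voom called 0, with 1099 under 0.05, and DESeq2 called 138, 91 more positive and 47 more negative. Single libraries moved the edgeR count between 0 and 5, reached without on-Tc adult 2, while leaving out on-Tc larva 2 gave 2. The Pearson correlation of the 2 stage differences across transcripts was 0.864 and the Spearman correlation 0.747, with a median absolute gap of 0.515 log2 units.

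Transcripts called between stages on tetracycline were then followed in the post-Tc and control libraries. Those libraries entered the filter, scaling and estimate of spread of the fit, but not the on-Tc difference itself. The 1535 called higher in on-Tc adults (12.2% of those tested) had a median stage difference of 2.17 log2 CPM post-Tc and 1.97 in controls, with 1477 and 1483 of them higher in adults. The 1577 called lower (12.5%) had medians of -1.66 post-Tc and -1.85 in controls, with 1512 and 1534 of them lower in adults. Over the lower list, the library medians in adults were 1.69 to 1.78 log2 CPM post-Tc, 1.39 to 1.78 in controls and 0.860 to 1.20 on-Tc. In larvae they were 3.72 to 3.99 post-Tc and 3.87 to 4.10 in controls. Over the higher list they were 4.15 to 4.49 in post-Tc adults, 4.19 to 4.31 in control adults and 4.45 to 4.56 in on-Tc adults, and 1.55 to 1.88 in post-Tc larvae and 1.65 to 1.96 in control larvae. For both lists the post-Tc and control libraries overlapped in each stage. The post-Tc adults overlapped the on-Tc adults over the higher list and lay above them over the lower list, but the on-Tc values are those that chose the lists.

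The transcript with the smallest p in the positive direction was the same in both double differences. A low transcript, g6429.t1, had 35, 59 and 41 counts in post-Tc adults 1 to 3 (1.14, 1.71 and 1.30 CPM) and 0 counts in all 3 post-Tc larvae. Its adult mean was 17.4-fold the floor of 3 counts per library. In controls it had 82, 60 and 31 counts in adults against 10, 7 and 10 in larvae, and on-Tc 46, 6 and 14 counts in adults against 4, 4 and 10 in larvae. The groups did not overlap in CPM at any of the 3 times. Neither double difference passed edgeR's test (FDR 0.842 against control and 0.0590 against on-Tc), and in other settings the FDR against on-Tc ran from 0.00272 to 0.416. With the larvae at 0, its fitted size depends on the prior count and is not given.

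In the negative direction, g20714.t1 had the smallest p against control. Its levels were 24.6, 12.02 and 9.83 CPM in post-Tc adults 1 to 3, against 4.28, 2.91 and 4.10 CPM in post-Tc larvae 1 to 3, a 4.12-fold difference. In controls adults 1 to 3 had 16.4, 53.3 and 42.7 CPM, against 0.713, 0.824 and 1.45 CPM in larvae 1 to 3, a 37.3-fold difference. Every post-Tc larva lay above every control larva, while post-Tc and control adults overlapped. The double difference was -3.18 (log2, SE 0.72; edgeR FDR 0.941), and DESeq2 gave an FDR of 0.0377.

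Against on-Tc, the smallest p in the negative direction was that of g13005.t1. It had 266, 302 and 266 CPM in post-Tc adults 1 to 3, against 484, 523 and 381 CPM in post-Tc larvae 1 to 3. On-Tc adults 1 to 3 had 1013, 732 and 1984 CPM, against 366, 480.0 and 498 CPM in on-Tc larvae 1 to 3. Adults thus lay below larvae post-Tc and above them on-Tc, without overlap either time, and control adults, at 239.7 to 294 CPM, lay below control larvae, at 338 to 412 CPM. The double difference was -2.21 (log2, SE 0.42) and did not pass edgeR's test (FDR 0.322, from 0.00146 to 0.565 in other settings).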

How the data were processed

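The authors deposited raw counts per predicted transcript for 18 libraries. The submitters' processing notes name Trimmomatic, STAR, featureCounts and DESeq2. Their versions, the build, the annotation and the strand setting were not given in the sources used here. Reads shared by near-identical genes or by transcripts of a gene number (2274 transcripts) may have been split or lost, so single members are uncertain. Among counts from 1 to 20 in the post-Tc libraries, 63.2% to 69.5% were even, so halved counts were tried. All per-sample columns were matched by library name. No 2 libraries of a post-Tc group were near-duplicates (chi-square divided by degrees of freedom, 339 to 1081).

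The fits used edgeR 4.0.16 under R 4.3.3: filterByExpr (minimum count 10, minimum total 15), TMM, a mean per group over all 18 libraries, the quasi-likelihood F-test, and Benjamini-Hochberg adjustment over all transcripts tested, called at FDR 0.05. SEs and 95% intervals came from the F statistic. Log2 CPM used a prior count of 2. Thinning was binomial. Fits were also run on simulated counts with 200 changed transcripts and all others equal between groups. This checked the code only, as far more transcripts were called in the data. Alternatives used DESeq2 1.42.0, limma-voom (limma 3.58.1), other scalings, filters and covariates, and left-out libraries. The members, lists, naming rule and tests were chosen with earlier results of these data known. Gene lists by name could not be used. Same-numbered adult and larval post-Tc libraries did not deviate together (correlations -0.0455, -0.0146 and -0.0579, against -0.0543 to 0.0786 for other pairs). With 3 libraries a stage this cannot exclude that the numbers pair them, so fits with the replicate number as a block are given below. Figures were drawn with matplotlib 3.10.9.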

Additional observations from a re-analysis of the deposited data

Results flagged for a closer look

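The stage difference of g13005.t1 was flagged because it changed sign between the 2 times. All post-Tc adult libraries lay below all post-Tc larval ones, and all on-Tc adult libraries lay above all on-Tc larval ones. The transcript was picked for its small p in this double difference on the same libraries, so the reversal describes it and tests nothing. The fitted stage differences were -0.74 (log2, SE 0.30, edgeR FDR 0.0747) post-Tc and 1.47 (log2, SE 0.30, edgeR FDR 0.00271) on-Tc. The difference between these values, -2.21, did not pass edgeR's test over all transcripts (FDR 0.322). The larval libraries of the 2 times overlapped, at 381 to 523 CPM post-Tc and 366 to 498 CPM on-Tc, and the adult libraries did not, at 266 to 302 CPM post-Tc and 732 to 1984 CPM on-Tc.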

How the results depend on the processing

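The count of 3866 transcripts called between post-Tc adults and larvae stayed within 1.5 times in 17 of 20 alternatives. It was 1697 against a 2-fold threshold, where the test asks for more, 2539 without larvae 1 and 2 together, where the lone larva 3 was assumed to vary like the other groups, and 1875 with only the 6 post-Tc libraries and the replicate number as a block (1135 higher, 740 lower), against 3463 with that block in all 18 libraries; no post-Tc library correlated best with its own number (0 of 6). Leaving out a post-Tc library gave 2588 to 3518. The named stage transcripts lost no call. The double difference against control stayed at 0 called except with DESeq2 (6), and at 0 with each library left out. Against on-Tc it was 138 with DESeq2 and 1 with RLE size factors, a covariate for the digit in library names or only the 12 libraries concerned, and 0 to 5 with a library left out, while the replicate block gave 0 for both; the cause was not tested. The gap in the 10 leading transcripts' share stayed between 11.5 and 13.6 percentage points with a library left out. The gap in detected transcripts ranged from -75.7 to 517, and it turned negative without larva 3. With a library left out, the on-Tc lists' post-Tc medians ran from 2.02 to 2.25 and from -1.76 to -1.63, and the lower list's was -1.46 for DESeq2's calls. The same-direction counts of the adult and larval lists ran from 947 to 950 and from 989 to 999; these were added after the data were seen. Scaling moved the median stage difference of all transcripts by at most 0.0122. Depth limits low transcripts most, and with 3 libraries a group small changes cannot be called.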

Other observations

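Stage-different transcripts often bore neighbouring gene numbers. Of 1984 gene numbers with a transcript called higher in post-Tc adults, 725 (36.5%) had a number directly above or below them that was also called higher, against 20.1% of all 12519 gene numbers tested. For the 1876 called lower the share was 36.4% (682 gene numbers), against 21.6%. A neighbour called in the opposite direction was found for 13.7% and 14.8%, against 21.6% and 20.1% of all gene numbers with a neighbour called in that direction. The longest unbroken run was 9 gene numbers for those higher and 7 for those lower, and there were 86 and 68 runs of at least 3. No expected number of runs was worked out, so the runs only describe these calls. The sources used here do not state how gene numbers relate to positions in the genome, and reads shared between similar neighbouring genes were not tested.

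There were 76 gene numbers with more than 1 tested transcript, 25 of them with at least 1 call. Of all tested transcripts 30.7% were called, and a gene number with more transcripts has more chances of a call. The counts were not tested against an expected number. In 5 all tested transcripts were called the same way in post-Tc adults, and in 1 a transcript was called higher and another lower.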
